A study of Sorghum bicolor with 24 samples.

Results

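A set of 51 of the 34145 sorghum gene models was down-regulated in ABA-treated roots and up-regulated in PEG-treated roots, with no call in ABA-treated shoots. ABA (abscisic acid) is the hormone that accumulates in plants short of water, and PEG (polyethylene glycol) is an osmolyte that lowers the water potential around the root. The members were chosen from the deposited RPKM (reads scaled to exon length and to library size) by a log2 ratio of (mean treated + 1) to (mean control + 1) of −1 or less with ABA against NaOH, with every ABA library below every NaOH library, and of 1 or more with PEG against H2O, with every PEG library above every H2O library. The same rule in ABA-treated shoots had to give no call in either direction. A total of 56 genes met the root criteria, and 5 of these were left out because they were called in ABA-treated shoots. The values in ABA-treated and PEG-treated roots and in ABA-treated shoots therefore chose the members and are given as a description, and where calls of a test in these contrasts are counted, the counts show only how far the rule and the test overlap.

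RNA-Seq was carried out on roots and shoots of seedlings of the sorghum line BTx623 grown in hydroponics, in 24 libraries that form 8 groups of 3. Seedlings received 20 μM ABA, a NaOH solution as the control of ABA, 20% PEG, or H2O as the control of PEG, and were harvested after 27 h at an age of 9 days. All groups are wild-type plants of this line. Each replicate number is a separate hydroponic experiment in which each treatment was given to 3 buckets of 10 plants whose RNA was then combined, and roots and shoots of a treatment came from the same plants, so a library is an average over pooled plants and whole organs. The labels give the NaOH control as 0.2 M, which is not the concentration given in the study's methods.

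Part of the answer of plants to a lack of water runs through the ABA receptors, their phosphatases and kinases, and the transcription factors that bind ABA-responsive elements. Osmotic stress also acts through routes that do not need ABA, and applied ABA slows root growth. The part of these processes in the values given here was not tested. Among the families described here, glutathione S-transferases conjugate glutathione to reactive compounds, class III peroxidases and glyoxal oxidases act on or produce hydrogen peroxide in the cell wall, cytochromes P450 oxidize hormones and secondary metabolites, and expansins loosen the cell wall during growth. In roots, the rule called 1192 genes up and 1611 down with ABA (3.49% and 4.72% of all gene models) and 600 up and 320 down with PEG (1.76% and 0.937%). The other combinations of root calls held 213 genes raised by both treatments, 204 lowered by both and 5 raised by ABA and lowered by PEG.

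The libraries held 12891583 to 22840341 reads on gene models. Light-harvesting and Rubisco small subunit genes, 8 markers of leaves, summed to 4.42 to 28.2 RPKM in root libraries and to 11382 to 35545 RPKM in shoot libraries, with none of the 8 at 0 in any group. Their sum was 4.42 to 12.9 RPKM in PEG-treated roots and 13.4 to 22.3 RPKM in H2O roots, and its part in the results was not tested. The list of root markers matched only 1 gene, which was lower in the control roots than in the control shoots, and so did not mark roots. In bulk tissue, fewer cells of a type and less RNA per cell cannot be told apart. NaOH root replicate 3 stood apart for these genes: it was the highest of the 6 control root libraries in 39 of the 51 members (76.5%) and in 23.5% of the 19729 other genes with a mean of at least 1 RPKM in roots. The rule asks for a NaOH mean well above ABA, which favours genes that are high in a single NaOH library. The shares are therefore partly fixed by the choice of members. Without this library the same rule found 43 genes, 40 of them among the 51, and with the 6 control root libraries pooled as the control of both treatments it found 29, 28 of them among the 51.

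**Figure D1:**
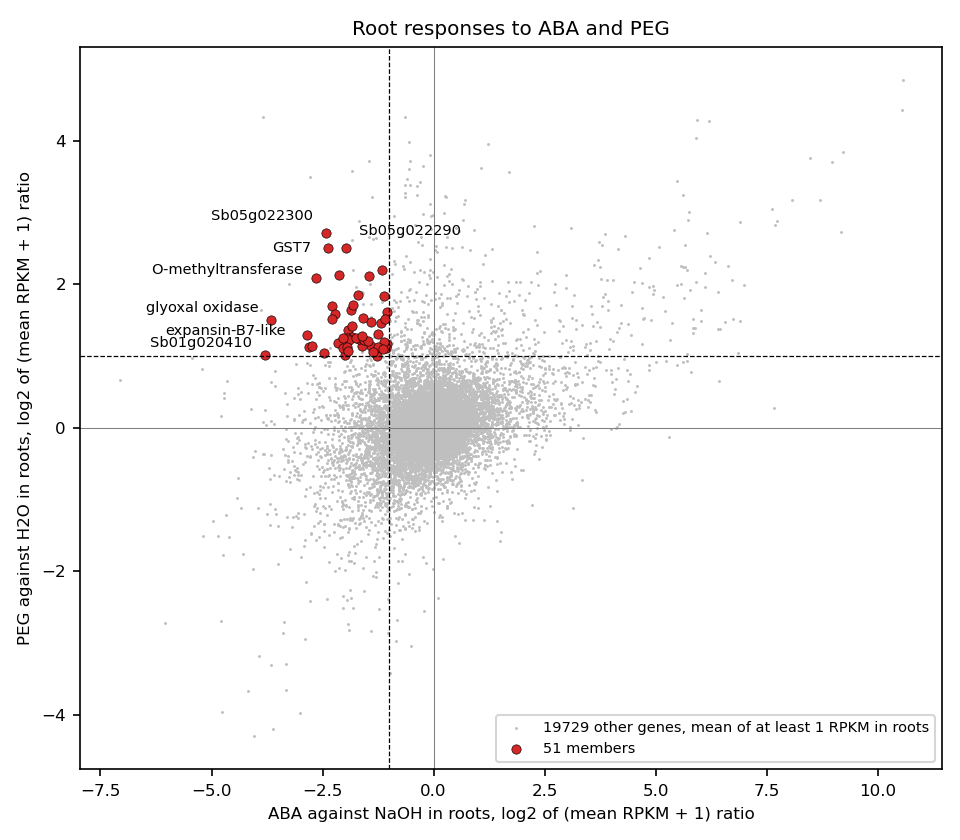
Log2 ratio of (mean RPKM + 1) in ABA-treated over NaOH roots (x axis) against that in PEG-treated over H2O roots (y axis), with the 51 members in red, 19729 other genes with a mean of at least 1 RPKM in roots in grey, and dashed lines at the limits of the rule. The members reach −3.81 with ABA and 2.72 with PEG, and some grey points lie beyond both limits because their replicates overlapped or they were called in ABA-treated shoots.

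The member ratios ran from −3.81 to −1.04 with ABA (median −1.84) and from 1.01 to 2.72 with PEG (median 1.26), whereas the medians of the 19729 other genes were 0.03 in each comparison. The median of the members' mean RPKM was 9.71 in NaOH roots, 1.59 in ABA-treated roots, 8.32 in H2O roots and 25.6 in PEG-treated roots. In ABA-treated roots, where the rule asked for low levels, 17 of the 51 members were under 1 RPKM in every library. The share of other genes was not computed for this count. Against the other control, which the rule did not set them against, the ABA libraries lay below all 3 H2O root libraries in 51 of 51 members (23.7% of genes with a read in these libraries), and the PEG libraries lay above all 3 NaOH root libraries in 34 of 51 (12.0%). The rule had fixed the H2O level below PEG and the NaOH level above ABA, so nothing further is read from these counts.

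The margins of the rule were narrow for some genes. With ABA, the members just inside the limit were Sb07g020270 (log2 ratio −1.04), Sb01g022690 (−1.06) and Sb02g028960 (−1.08), and the genes just outside were Sb02g008970 (−0.999), Sb04g006880 (−0.992) and Sb01g017170 (−0.977). With PEG, Sb02g028580 (1.006), Sb01g046680 (1.007) and Sb01g020410 (1.01) were just inside, and Sb05g017980 (0.983), Sb01g016740 (0.97) and Sb06g001690 (0.964) just outside. In ABA-treated shoots, Sb05g027340 (−1.06, with overlapping replicates), Sb10g021650 (0.943) and Sb01g029620 (−0.932) stayed in. Sb05g012960 (−1.14), Sb03g036740 (−1.37) and Sb02g007160 (−1.41) were left out. Sb09g019650 had the lowest ratio of the members there, −2.02, and stayed in only because its replicates overlapped. It was at 96.5, 17.3 and 67.3 RPKM in NaOH shoots and 18, 7.77 and 16.5 in ABA-treated shoots.

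The largest opposite responses with a product name included a glutathione S-transferase, Sb03g045800, described as similar to GST7 (chromosome 3, 73072134 to 73073300, sbi1 assembly). Its RPKM was 18.9, 20.3 and 13.7 in H2O roots and 120, 114 and 79.6 in PEG-treated roots, and 21.9, 20 and 17.9 in NaOH roots against 4, 3.19 and 1.88 in ABA-treated roots. The rule had set each treated group clear of its own control, and the 4 groups did not overlap except for the pair of controls. The PEG mean was 5.95 times the H2O mean, and the NaOH mean was 6.59 times the ABA mean. The log2 ratios were 2.51 with PEG (SD 0.10 over the 3 replicate pairs) and −2.38 with ABA (SD 0.27). NaOH root replicate 3 was the lowest of its 3 NaOH libraries.

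Opposite responses were also seen in 2 further glutathione S-transferases, enzymes of detoxification. Sb02g038130 was at 3.81, 4.78 and 3.55 RPKM in H2O roots, 13.3, 14.1 and 7.02 in PEG-treated roots, 3.98, 2.78 and 2.24 in NaOH roots and 0.705, 0.744 and 0.557 in ABA-treated roots. Sb01g030890, similar to GST 40, was at 5.88, 6.86 and 5.43 RPKM with H2O, 21.7, 19.8 and 14.4 with PEG, 11, 8.46 and 4.11 with NaOH and 2.63, 2.46 and 1.99 with ABA. In both genes each treated group was clear of its own control, as the rule required of every member. Other genes of the family near these members had other combinations of ratios. Next to Sb03g045800, the other GST7 copies Sb03g045790 and Sb03g045810 had log2 ratios of 3.12 and 1.4 with PEG and of 0.69 and −0.64 with ABA, and Sb02g038120, next to Sb02g038130 by gene number, had 1.18 with PEG and −0.11 with ABA. The ratio understates changes of low genes such as Sb03g045810, whose mean was 0.654 RPKM in NaOH roots and 0.059 with ABA. The next listed gene after Sb01g030890, Sb01g030930, similar to GST 42, had −1.87 with ABA and 0.80 with PEG. Near-identical copies can share reads that the authors' unique-match rule left out, so levels of single copies are uncertain.

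Of the 26 glutathione S-transferases with a description in the study's gene tables, 13 were called up and 0 down in PEG-treated roots, with 3 of the 26 being members of the set. Calls here and below are from the quasi-likelihood test of edgeR, for genes that changed by 1 or more on the log2 scale, with a Benjamini-Hochberg adjusted p under 0.05 and a median coverage of 2X or more in 1 of the groups compared, and 2.03% of the 22667 genes tested were called up with PEG in roots and 1.45% down. In ABA-treated roots 4 of the 26 were called up and 7 down, beside 5.44% and 8.21% of all genes tested. The median log2 fold change of the list was 1.20 with PEG and −0.64 with ABA, and that of all genes 0.00 and −0.02. These tables list genes that the study called on the same samples, so that the list counts are not independent evidence of a direction.

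**Figure D2:**
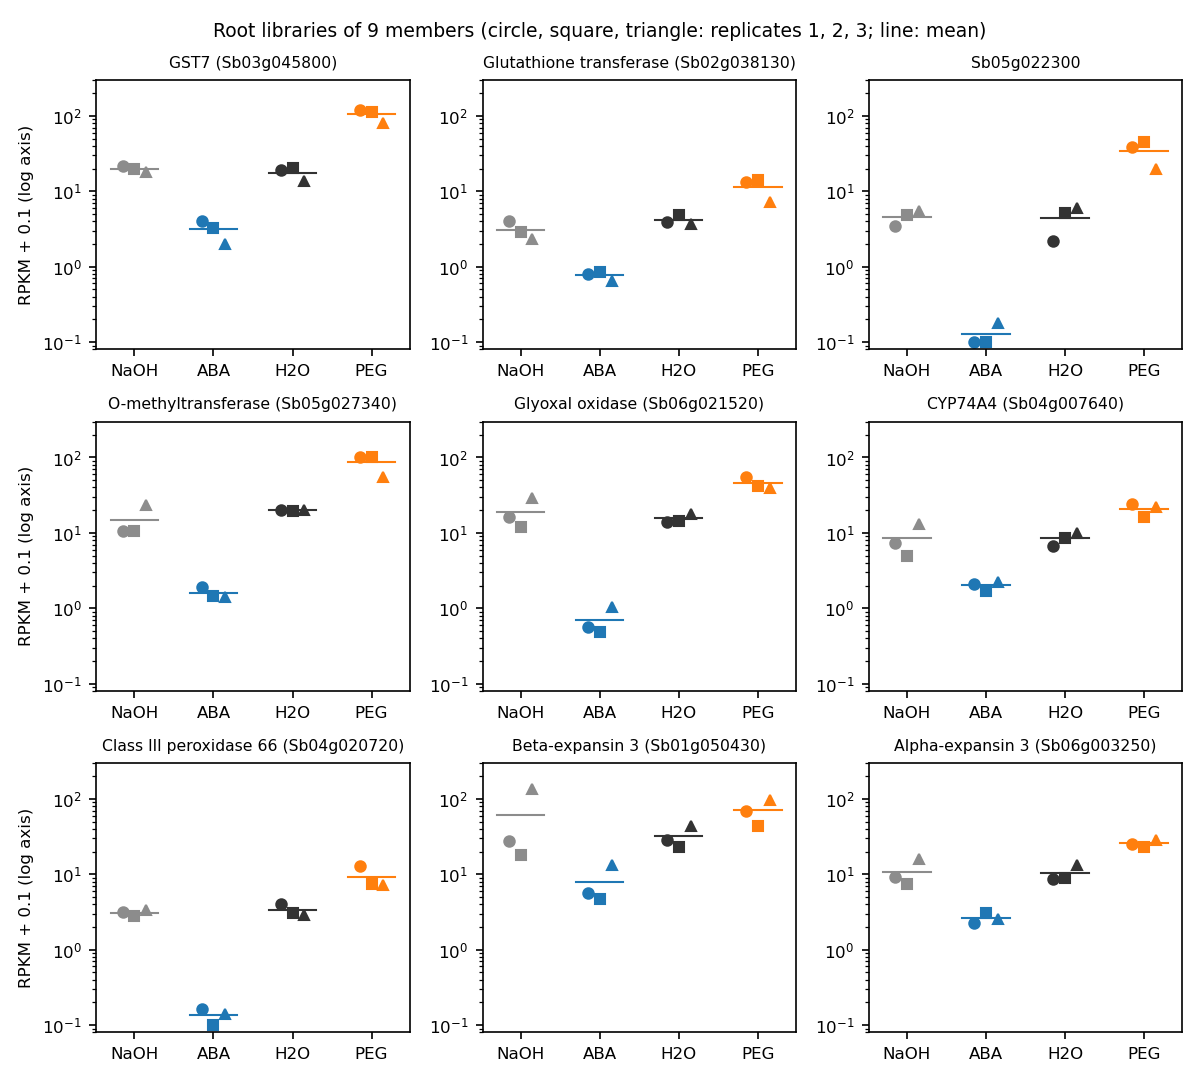
RPKM + 0.1 on a log axis in the 12 root libraries of 9 members, with the NaOH, ABA, H2O and PEG groups along the x axis, a symbol per replicate and a line at the group mean. ABA libraries are lowest in every panel, and PEG libraries are above H2O, as the rule required of every member. In the beta-expansin panel the triangle of NaOH replicate 3 stands at 136 RPKM above 27.8 and 17.8.

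Among the largest ratios with PEG were those of a pair of neighbouring gene models on chromosome 5, Sb05g022290 (54004429 to 54010157) and Sb05g022300 (54010695 to 54011534), which are 537 bases apart. Both are described only by a rice clone, and Sb05g022290 is placed in ent-kaurene biosynthesis, the diterpenoid route that leads to gibberellins and, in cereals, to defense compounds. The RPKM of Sb05g022300 was 2.12, 5.05 and 5.96 in H2O roots and 38.2, 45.5 and 19.6 with PEG, and it was at 3.39, 4.75 and 5.42 in NaOH roots and at 0, 0 and 0.0805 with ABA. Sb05g022290 was at 2.12, 2.82 and 3.69 RPKM with H2O, 23.3, 26.9 and 13 with PEG, 2.89, 2.72 and 4.16 with NaOH, and 0.0919, 0.0444 and 0.123 with ABA. Both models were near 0 in every ABA library, and in both the lowest PEG library was replicate 3. Of the next models along the chromosome, Sb05g022310 stayed under 1 RPKM in all libraries, and Sb05g022320, weakly similar to an ent-kaurene synthase-like protein and named here after its values were seen, had log2 ratios of 2.14 with PEG and −0.93 with ABA. Short adjacent models with the same description may be pieces of 1 gene, which these tables cannot settle.

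Members that act in the cell wall and in secondary metabolism included a glyoxal oxidase and an O-methyltransferase. Sb06g021520, similar to a glyoxal oxidase, an enzyme that produces hydrogen peroxide, was at 16.1, 11.9 and 29 RPKM in NaOH roots and 0.464, 0.389 and 0.93 in ABA-treated roots, and at 13.9, 14.4 and 17.9 with H2O and 55.5, 41.4 and 39.4 with PEG. Sb05g027340, similar to an O-methyltransferase, a class that methylates phenolic compounds, was at 10.6, 10.5 and 23.3 RPKM with NaOH, 1.84, 1.36 and 1.33 with ABA, 19.8, 19.6 and 19.7 with H2O and 103, 102 and 55.8 with PEG. The glyoxal oxidase had a log2 ratio of −3.65 with ABA (SD 0.37) and a PEG mean of 2.95 times the H2O mean, and the O-methyltransferase had log2 ratios of −2.65 (SD 0.72) and 2.08 (SD 0.50) with ABA and PEG. No treated library reached the range of its control in either gene, as the rule required of every member.

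Class III peroxidase 66, Sb04g020720, is a member of a family that cross-links wall phenolics and lignin. Its RPKM was 3.05, 2.67 and 3.23 in NaOH roots and 0.063, 0 and 0.0421 with ABA, and 3.88, 2.99 and 2.78 in H2O roots against 12.6, 7.42 and 7.06 with PEG. By product name it was the only member among 44 peroxidases of the list. Of these, 29 were called down and 6 up in ABA-treated roots and 6 up and 6 down in PEG-treated roots. Their median log2 fold changes were −2.06 and −0.34. Of all genes tested, 8.21% were called down and 5.44% up with ABA, and 2.03% up and 1.45% down with PEG. This list too holds genes that the study called, so its counts are not independent evidence. Sb02g040770, an uncharacterized protein placed in betanidin degradation as Sb04g020720 is, was also a member, with log2 ratios of −2.23 with ABA and 1.58 with PEG. It was named after its values were seen. Sb02g028580, weakly similar to a cinnamoyl-CoA reductase of phenylpropanoid synthesis, was just inside the PEG limit with 2.57, 2.32 and 2.04 RPKM with H2O and 6.13, 5.88 and 4.92 with PEG. With ABA it was at 0.863, 0.932 and 1.02 RPKM against 2.02, 1.95 and 7.01 with NaOH, so that its ABA ratio of −1.27 was −0.62 without NaOH root replicate 3.

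Among the cytochromes P450, Sb04g007640, similar to CYP74A4, stood in the jasmonic acid pathway; CYP74A enzymes are allene oxide synthases, which commit lipid hydroperoxides to jasmonate. It was at 6.69, 8.43 and 9.85 RPKM with H2O, 24.1, 16.3 and 22.2 with PEG, 7.27, 4.82 and 13 with NaOH and 2.03, 1.57 and 2.14 with ABA. Sb01g022690, similar to CYP78A1, was at 30.7, 28.2 and 28.1 RPKM with H2O, 82.4, 54.2 and 62.4 with PEG, 28.8, 20.7 and 18.3 with NaOH and 14.2, 10.3 and 6.54 with ABA. Sb01g007410, described only as a P450, was at 3.07, 3.6 and 4.63 RPKM with H2O, 13.5, 10.1 and 9.99 with PEG, 3.34, 2.92 and 7.12 with NaOH and 0.488, 0.438 and 0.372 with ABA. All 3 genes had treated libraries clear of their controls, as the rule required of every member.

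Gene models with the same description and neighbouring numbers differed from Sb01g007410 (log2 ratios −1.93 with ABA and 1.36 with PEG). Sb01g007420 had 0.27 with ABA and 3.22 with PEG, Sb01g007400 had −1.14 and −0.22, and Sb01g007430 had 1.27 and 0.2. Of 41 cytochromes P450 in the list, 11 were called up and 1 down in PEG-treated roots and 8 up and 14 down in ABA-treated roots. The median log2 fold changes were 0.49 and −0.98. Of all genes tested, 2.03% were called up and 1.45% down with PEG, and 5.44% and 8.21% with ABA. This list too holds genes that the study called, so its counts are not independent evidence.

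Expansins, which loosen cell walls, made up 4 members. Sb01g046680, similar to Expansin-A25, was at 2.26, 2.88 and 7.51 RPKM in NaOH roots, 0.501, 0.161 and 0.279 with ABA, 3.49, 3.11 and 3.02 with H2O and 8, 6.94 and 7.42 with PEG. It is shown with the primer pair that the study designed for its quantitative PCR, the only sequences of a member in the sources used here, written 5′ to 3′ and on chromosome 1.
Sb01g046680 forward primer: gtctacagagccggcatcatc
Sb01g046680 reverse primer: acgttggagaactgcaccag
Sb06g003250, similar to Alpha-expansin 3, was at 9.2, 7.38 and 15.7 RPKM with NaOH, 2.15, 2.94 and 2.43 with ABA, 8.65, 8.84 and 13 with H2O and 25, 23 and 28.8 with PEG. The treated libraries of both genes lay outside the range of their controls, as the rule required. The quasi-likelihood test did not call either gene up with PEG in roots (edgeR adjusted p of 0.11 and 0.0581). With the 6 control root libraries pooled, the PEG ratio of Sb01g046680 was 0.84 and that of Sb06g003250 was 1.21, and only the latter stayed in the set.

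The other 2 expansins, Sb01g050430 (Beta-expansin 3, chromosome 1, 73488844 to 73489576) and Sb01g050435 (weakly similar to Expansin-B7, 73489679 to 73489954), lie 102 bases apart. Sb01g050430 was at 27.8, 17.8 and 136 RPKM in NaOH roots, 5.61, 4.61 and 13.3 with ABA, 28.7, 23.3 and 43.3 with H2O and 70.2, 43.9 and 97.6 with PEG. Sb01g050435 was at 23.1, 13.8 and 133 RPKM with NaOH, 7.71, 2.63 and 10.6 with ABA, 17, 18.4 and 38.8 with H2O and 57.1, 40 and 89 with PEG. Replicate 3 was the highest library of both genes in all 4 root groups. Their ABA ratios of −2.80 and −2.85 were −1.43 and −1.29 without NaOH root replicate 3, and neither met the PEG limits without PEG root replicate 3. With the 6 control root libraries pooled, both had a PEG ratio of 0.60 and left the set. The quasi-likelihood test did not call either up with PEG in roots (edgeR adjusted p of 0.256 and 0.262). Sb01g029620, similar to a cortical cell-delineating protein, named for a maize transcript of the root cortex, was among the most abundant members at 85.3, 89.7 and 94.7 RPKM with H2O, 228, 189 and 196 with PEG, 109, 78.4 and 222 with NaOH and 33.3, 29.9 and 26.2 with ABA.

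In the list of 36 xyloglucan endotransglucosylases and expansins, 20 were called down and 3 up in ABA-treated roots, and 5 up and 2 down in PEG-treated roots, with median log2 fold changes of −2.06 and 0.39. Each treatment thus had calls in both directions in the list. The 4 members in the list were not among the 5 called up with PEG. Of all genes tested, 8.21% were called down and 5.44% up with ABA, and 2.03% up and 1.45% down with PEG. This list too holds genes that the study called, so its counts are not independent evidence. Expansin-A12, Sb01g046700, had log2 ratios of −3.31 with ABA and 0.33 with PEG, and the beta-expansin Sb01g029260 had −3.69 and −0.72. Expansin-A17, Sb10g000790, had 0.28 and 2.52.

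Further members fell in hormone and sugar pathways or in regulation. Sb02g030050 and Sb04g003400, placed in cytokinin glucoside synthesis, which stores or inactivates the hormone, had log2 ratios of −1.46 and −1.19 with ABA and 2.11 and 1.46 with PEG. Sb02g030050 was at 13.4, 13.9 and 12.3 RPKM with H2O, 70.9, 61 and 48.6 with PEG, 18.1, 15.4 and 10.8 with NaOH and 5.51, 3.59 and 5.01 with ABA. Sb06g031920, placed in fructan metabolism, was at 3.18, 3.13 and 3.72 RPKM with H2O and 24.8, 22.6 and 9.6 with PEG and stood at −1.16 with ABA, which was −0.83 without NaOH root replicate 3, as the ratio of Sb04g003400 was −0.85. Sb03g003120, a P-type R2R3 Myb protein and the only transcription factor named as such among the members, had −1.12 and 1.19, and the former was −0.51 without that library. These 4 genes were named after their values were seen.

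With 1 RPKM added to each mean, the widest ABA ratio belonged to Sb01g020410, weakly similar to a CACTA transposon protein. It was at 13.8, 15.3 and 37.1 RPKM with NaOH and 0.608, 0.392 and 0.947 with ABA. Without the added 1 RPKM its NaOH mean was 34 times the ABA mean, against 168 times in Sb05g022300 and 115 times in Sb07g001720. Its PEG ratio was at the limit with 17.4, 14.6 and 9.67 RPKM with H2O and 29.2, 30.5 and 27.2 with PEG. The quasi-likelihood test did not call this rise (edgeR adjusted p of 0.172). Other members were named because they lay near a limit. Sb07g020270 was at 29.6, 26.6 and 26 RPKM with H2O, 70.2, 79.9 and 107 with PEG, 24.7, 27.1 and 55.4 with NaOH and 14.3, 15.3 and 21 with ABA. Sb02g028960 was at 26.8, 26.7 and 30.3 RPKM with H2O, 59.2, 47.3 and 78.3 with PEG, 24.6, 21.9 and 52 with NaOH and 16.4, 13.6 and 15.2 with ABA. Sb10g021650 was at 74.8, 70.9 and 74.7 RPKM with H2O, 205, 153 and 104 with PEG, 88.2, 61.5 and 97.9 with NaOH and 39.1, 27.1 and 28.3 with ABA. Sb04g026650, which has no description, was the most abundant member with means of 231 RPKM in H2O roots, 541 with PEG, 277 with NaOH and 73.4 with ABA. In all, 38 of the 51 members had a description in the study's tables and 13 had none there, and the members lie on all 10 chromosomes, with 10 on chromosome 1 and 9 on chromosome 4.

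**Figure D3:**
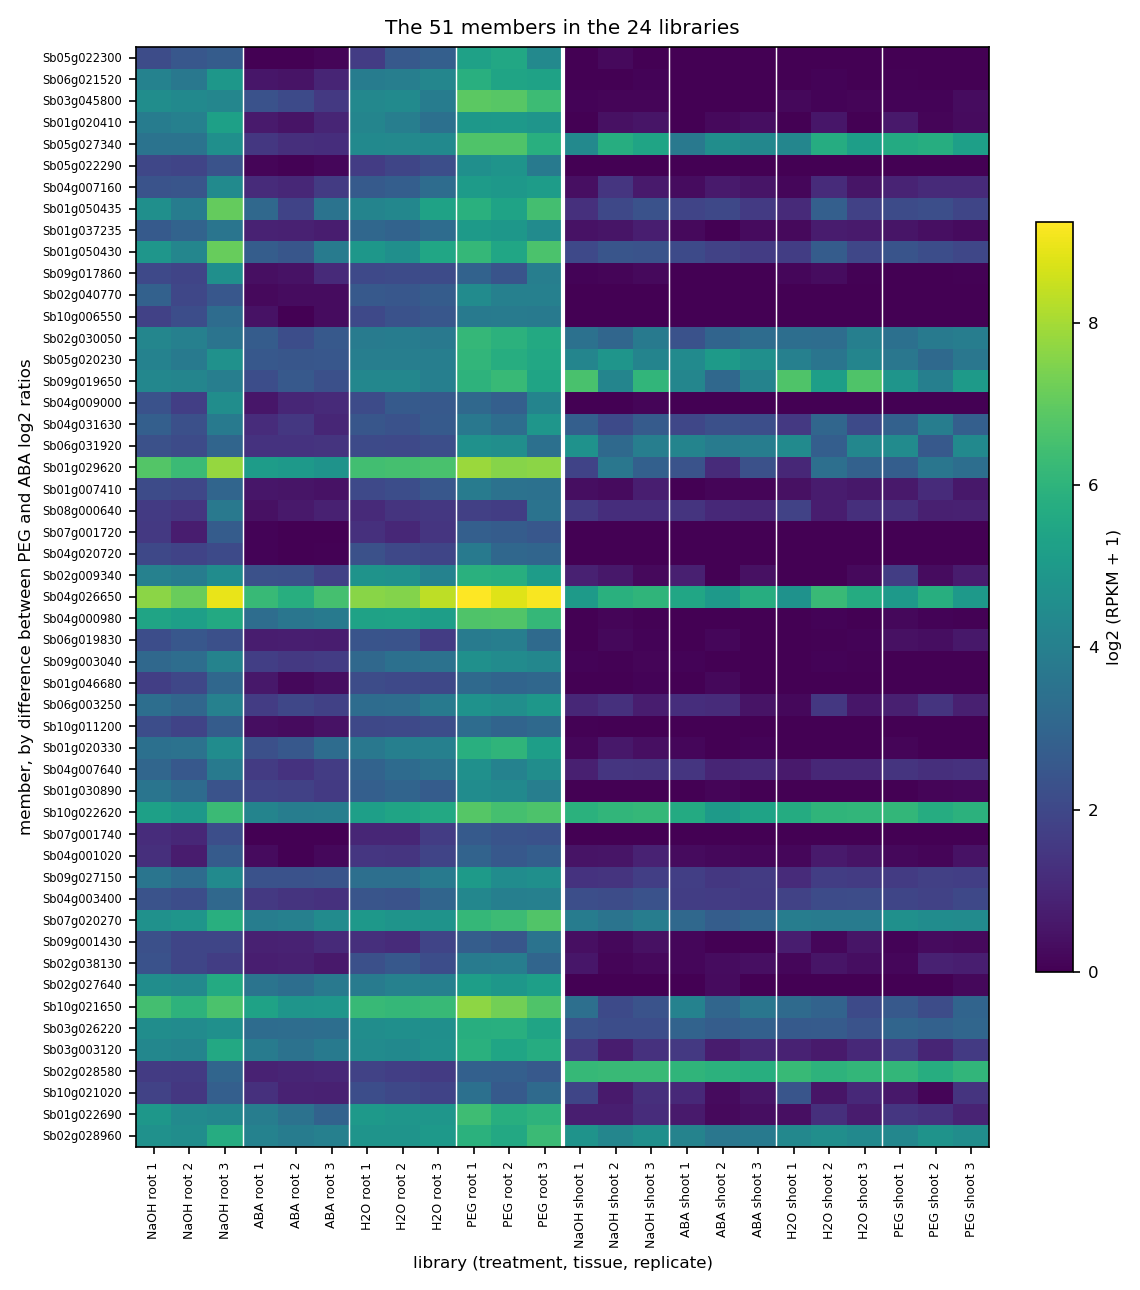
Log2 of (RPKM + 1) of the 51 members (rows, by the difference between their PEG and ABA log2 ratios in roots) in the 24 libraries (columns), with a wide white line between roots and shoots. ABA-treated roots are the darkest root columns and PEG-treated roots the brightest, and 24 members are under 1 RPKM in every shoot library.

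NaOH root replicate 3 was at least 2 times the mean of NaOH replicates 1 and 2 in 29 of the 51 members (56.9%). The same held in 5.85% of the other genes with a mean of at least 1 RPKM. It was at least 3 times the mean of replicates 1 and 2 in 10 members, a count without a computed share of other genes. The median of this quotient was 2.14 over the members and 0.97 over the other genes. The rule used the NaOH mean and favours genes that are high in a single NaOH library. These values are therefore a description and not a trait of the members. Sb09g017860, for example, was at 3.07, 2.75 and 23.3 RPKM in NaOH roots and 3.15, 3.36 and 3.27 in H2O roots, and Sb08g000640 at 2.01, 1.66 and 12.4 and at 1.17, 1.6 and 1.81. These genes were chosen after their values were seen. With this library left out of the mean, the ABA ratio had a median of −1.33 and was still −1 or less in 40 of the 51 members, and the 11 others included Sb02g028580, Sb02g028960 and Sb07g020270. Fermentation enzymes, which are made when roots are short of oxygen, were highest in replicate 3 of every root group and not in NaOH roots alone. Pyruvate decarboxylase, lactate dehydrogenase and the alcohol dehydrogenases summed to 108, 104 and 501 RPKM in NaOH roots and 189, 200 and 422 with ABA. The sums were 94.8, 101 and 115 RPKM with H2O and 177, 168 and 686 with PEG. The part of these differences in the members' values was not tested.

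**Figure D4:**
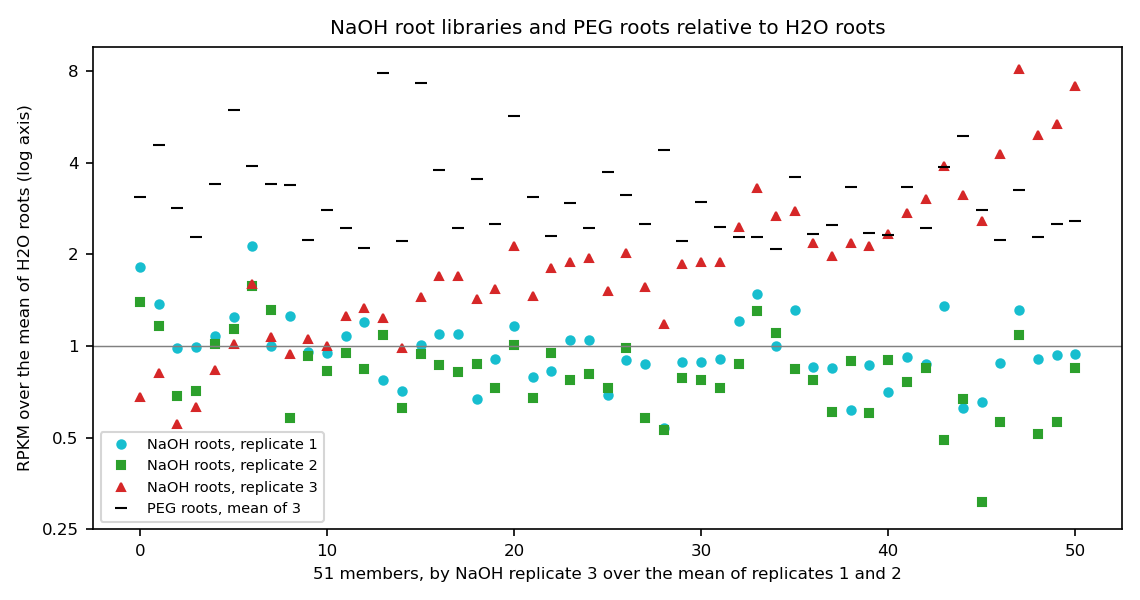
RPKM of the 51 members in each NaOH root library, and the mean of PEG-treated roots, as a quotient of the mean of H2O roots (log axis), with members ordered by NaOH replicate 3 over the mean of replicates 1 and 2. The triangles of replicate 3 rise above the circles and squares of replicates 1 and 2 in most members and reach the PEG means (dashes) at the right.

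PEG root replicate 3 was the lowest PEG library in 27 of 51 members and at least 2 times the mean of the other PEG libraries in 5. Among the latter were Sb04g009000 at 7.64, 5.95 and 16.9 RPKM and Sb08g000640 at 2.33, 2.24 and 10.4. The shares of other genes were not computed for these counts, so no trait of the members is read from them. Replicate 3 was base-called with another software version than replicates 1 and 2 in roots, so version and replicate cannot be told apart. Within replicates the median member ratio was −1.46, −1.35 and −2.23 with ABA in replicates 1, 2 and 3, and 1.52, 1.26 and 1.17 with PEG.

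When members were chosen on 2 replicate numbers and read in the third, most kept both directions. Without replicate 1 the rule found 53 genes, of which 52 were lower with ABA and higher with PEG in replicate 1, beside 19.2% of the other genes with a mean of at least 1 RPKM. Without replicate 2 it found 72, of which 68 had both directions in replicate 2 (background 24.0%), and without replicate 3 it found 51, of which 50 had both in replicate 3 (background 22.0%). The size was kept less often: 29 of 53, 29 of 72 and 23 of 51 reached a log2 ratio of −1 with ABA and of 1 with PEG in the replicate left out, beside 0.284%, 0.0812% and 0.664% of the other genes. The other genes were not chosen for any change in the remaining 2 replicates, so their shares are not a matched background. The rule and the choice of this set were made with these data known, so the held-out counts are a description.

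All 51 members passed the low-count filter. By the quasi-likelihood test 45 were called down and 0 up in ABA-treated roots, beside 8.21% and 5.44% of all genes tested. In PEG-treated roots 35 were called up and 0 down, beside 2.03% and 1.45%. The PEG count was 10 without replicate 1, 23 without replicate 3 and 15 with base counts as deposited. The rule used these contrasts, so nothing more is read from the counts. The 6 members below the ABA cutoffs included Sb02g028580, Sb07g001720 and Sb07g001740, a pair of genes without description on either side of a model with no reads, at 1.88, 0.683 and 5.42 and at 1.24, 1.02 and 3.7 RPKM in NaOH roots. In ABA-treated roots Sb07g001740 had no read in any of the 3 libraries, which allows up to 3 reads per library for counting error only. The rule also used both control groups of roots, with NaOH set above ABA and H2O below PEG, so their comparison is a description too. The NaOH mean was above the H2O mean in 40 of the 51 members, with a median log2 ratio of 0.23 against 0.00 in the other genes. By the quasi-likelihood test 0 members were called, as were 0 of all genes tested, and DESeq2 called 0 members. At an unadjusted p under 0.05 in the quasi-likelihood test there were 4 members, beside 1.59% of all genes tested.

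The rule asks for a level in NaOH and PEG-treated roots that can drop or be raised by the stated ratio, so a comparison of roots with shoots is partly fixed by the choice of members. In the controls, 38 of the 51 members were higher in all 6 root libraries than in all 6 shoot libraries, 12 overlapped and 1 was higher in shoots, against 57.7%, 29.8% and 12.5% of the 19729 other genes. The exception was the cinnamoyl-CoA reductase-like gene Sb02g028580, at 71.7, 75.1 and 76.4 RPKM in NaOH shoots and 73.7, 61.9 and 68.6 in H2O shoots, and at 2.02 to 7.01 in the control roots. In the 6 shoot libraries of H2O and PEG, which the rule did not use, 24 members (47.1%) stayed under 1 RPKM, as did 14.1% of the 213 genes raised by both treatments in roots, 39.7% of the 204 lowered by both and 9.88% of the other genes. The rule bars genes that move in ABA-treated shoots, which favours genes with low shoot levels, so these shares too are not compared by a test. Sb02g040770, Sb04g020720, Sb05g022290, Sb07g001720, Sb07g001740 and Sb10g006550 had 0 reads in all 12 shoot libraries, and the GST7 gene Sb03g045800 had 17 in all.

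PEG in shoots was the contrast that the choice of members did not use. By the quasi-likelihood test 0 of the 51 members were called up and 1 was called down, beside 2.73% and 2.00% of the 22667 genes tested. DESeq2 gave the same counts. At an unadjusted p under 0.05 there were 4 members higher and 3 lower, against 30.3% of all genes in either direction. Only 18 members reached the depth of 2X in PEG-treated or H2O shoots and could be called, with a median log2 fold change of −0.16, 6 of 18 above 0 and 0 at 1 or more. The other 33 were under the depth cutoff in both groups and could not be called, among them Sb06g019830, given below. By RPKM, PEG libraries lay above all H2O shoot libraries in 5 members and below them in 2, beside 22.0% and 7.45% of genes with a read in these libraries.

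The member called down was Sb09g019650, described as an uncharacterized protein (chromosome 9, 48493336 to 48497078). It was at 102, 35.1 and 103 RPKM in H2O shoots and 27.4, 14.9 and 31.6 in PEG-treated shoots, with all PEG libraries below the H2O libraries and a fitted log2 difference of −1.92 with an SE of 0.48 (edgeR adjusted p = 0.00922). In roots it was at 18.5, 18.3 and 14.7 RPKM with H2O and 61.7, 73.5 and 40.8 with PEG. In NaOH roots it was at 18.5, 17.4 and 14.3 RPKM and in ABA-treated roots at 3.54, 4.94 and 3.74. Replicate 2 was the lowest in every shoot group of this gene, and the call was lost without PEG shoot replicate 2, without replicate 1, without replicate 3 and in the fit of these 6 libraries alone, where the log2 fold changes were −1.64, −1.76, −1.95 and −1.88. A second gene passed the p but not the depth cutoff: Sb06g019830, placed in coumarin synthesis and in the breakdown of glucosides and named after its values were seen, was at 0, 0.0449 and 0.0665 RPKM in H2O shoots and 0.339, 0.262 and 0.504 in PEG-treated shoots (log2 fold change 2.92, adjusted p = 0.0178, edgeR).

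**Figure D5:**
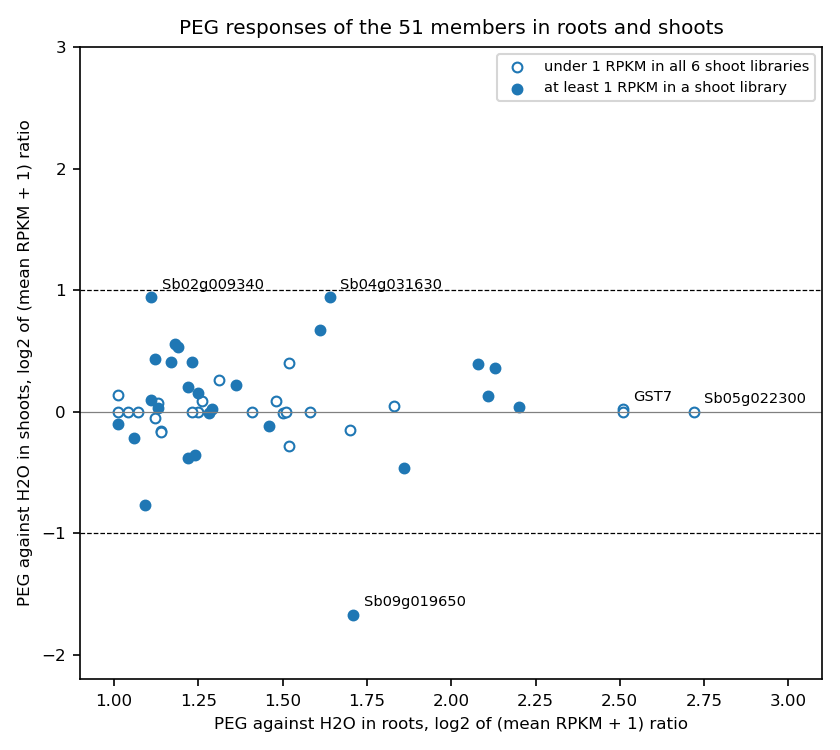
Log2 ratio of (mean RPKM + 1) with PEG over H2O in roots (x axis) against shoots (y axis) for the 51 members, with open circles for genes under 1 RPKM in all 6 shoot libraries of the comparison and dashed lines at −1 and 1. All root ratios are at least 1.01 by the rule, the shoot ratios run from −1.67 (Sb09g019650) to 0.94, and no member passes 1 in shoots.

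Between the control solutions in shoots 0 members were called, as were 0 of all genes tested, with 2 members at an unadjusted p under 0.05 (2.50% of all genes) and 0 called by DESeq2. With ABA in shoots, where the rule had removed the genes it called (2.23% of all gene models up and 1.64% down), the highest ABA library lay below the lowest NaOH library in 13 members and the lowest lay above the highest in 1, beside 12.0% and 21.3% of genes with a read in these libraries. The latter was Sb03g026220, placed in methionine degradation, at 4.06, 3.56 and 3.52 RPKM in NaOH shoots and 6.62, 5.62 and 6.16 in ABA-treated shoots. The test called 3 members down, Sb05g027340, Sb07g020270 and Sb09g019650, and 0 up, beside 4.01% and 3.16% of all genes tested. The rule used this contrast, so nothing is read from these counts. With the base-calling version as a term only Sb09g019650 was called, and without replicate 3 the test called 0 of the members.

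Of the 5 genes that met the root criteria but were called in ABA-treated shoots, 1 moved the opposite way there. Sb01g044090, similar to the sulfate transporter ST1, which takes up sulfate, was at 12.9, 8.43 and 14 RPKM in NaOH shoots and 33, 38.4 and 33.9 in ABA-treated shoots, and at 21.8, 22.8 and 35.1 in NaOH roots and 7.83, 7.6 and 8.52 in ABA-treated roots. The other 4, Sb02g007160, Sb03g036740, Sb05g012960 and Sb09g022260, were down in ABA-treated roots and shoots. Sb09g022260, the strongest of them, was at 24.6, 23.7 and 86.9 RPKM with NaOH, 4.31, 3.37 and 3.71 with ABA, 28.2, 26.4 and 25.3 with H2O and 106, 116 and 107 with PEG in roots.

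Lists of other stress and root genes, matched by product name, held no members. Only 38 of the 3768 genes with a description were members, a share at which lists of 36 genes or fewer mostly hold none. Members without a description, and 21 with an uninformative one, could not match a list. They include Sb02g030050 and Sb04g003400 of cytokinin glucoside synthesis and Sb05g022290 of ent-kaurene biosynthesis. Nothing is read from the absence of members. In ABA-treated and in PEG-treated roots, respectively, the median log2 fold changes were 6.15 and 2.50 for 6 late embryogenesis abundant proteins and dehydrins, which protect drying cells, 0.75 and 3.51 for 7 small heat shock proteins, which hold unfolded proteins, and −0.03 and 2.44 for 4 fermentation enzymes. With ABA, 6, 2 and 0 genes of these lists were called up, and with PEG 1, 4 and 2, with 0 called down. The medians thus do not stand for a call in every gene. The ABA value of the fermentation enzymes holds NaOH root replicate 3, whose sum of 501 RPKM was above all 3 ABA sums. The sums of NaOH replicates 1 and 2 (108 and 104) were below all 3 ABA sums. The PEG value holds PEG root replicate 3, with a sum of 686 RPKM beside 177 and 168 in replicates 1 and 2. The H2O sums were 94.8, 101 and 115 RPKM. The medians with ABA and PEG were 1.35 and 0.66 for 36 chitinases, glucanases and other pathogenesis-related proteins, and −0.79 and 0.29 for 14 aquaporins. They were −1.96 and −0.78 for 10 laccases, dirigent and Casparian strip proteins, and 0.64 and −0.15 for 14 nutrient transporters. Among 16 UDP-glycosyltransferases, which attach sugars to hormones and phenolics, 6 were called down and 2 up with ABA and 3 up and 2 down with PEG. Of 9 WRKY transcription factors 4 were called down and 2 up with ABA and 1 up with PEG. In the 3 terpene synthases the medians were −2.95 and 1.66, in the 3 ERF factors 0.60 and 0.64, and in the 2 NAC factors −0.85 and 0.31. Of the terpene synthases 1 was called down with ABA and 1 up with PEG. Of all genes tested, 5.44% were called up and 8.21% down with ABA, and 2.03% and 1.45% with PEG. These lists too hold genes that the study called, so their counts are not independent evidence.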

How the data were processed

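The 24 deposited tables give 4 values per gene model. The authors aligned 50-base reads to the sorghum sbi1 genome with ELAND_rna, allowing up to 2 errors, kept unique matches and used CASAVA 1.6 on Sbi1.4 models without regard to strand. The deposited count is a number of aligned bases, divided here by 50 and rounded to reads. The authors' RPKM, used by the membership rule, derives from those bases; the deposited depth, a coverage signal, is bases over exon length. Exon length, the fourth deposited value, was not used in a test. No column of another sample was used.

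Members and gene lists were chosen with earlier results of these data known. Named members were, by rule, the 12 largest PEG minus ABA differences with a product name, members of the lists, those called in PEG-treated shoots, adjacent members and those at the limits. Fold changes were fitted in R 4.3.3 with edgeR 4.0.16 (robust quasi-likelihood, TMM scaling, all 24 libraries, 1 mean per group, 22667 genes after the low-count filter) and adjusted by Benjamini-Hochberg within a comparison, after the test was checked on simulated data. DESeq2 1.42.0, other scaling, filters, base counts, the base-calling version, single comparisons and left-out libraries were alternatives. Leaving out replicate numbers was planned, as were calls without NaOH root replicate 3, PEG root replicate 3 or H2O shoot replicate 2; all other omissions of single libraries, exchanging the controls and choosing members on 2 replicates to read them in the third were added after seeing the data.

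Replicate numbers pair the samples, since each is a separate hydroponic experiment: deviations of same-numbered libraries correlated at 0.266 to 0.51 in PEG and H2O shoots, 0.118 to 0.228 in ABA and NaOH roots and 0.013 to 0.236 in PEG and H2O roots. Libraries held 12891583 to 22840341 reads (median 15352034), and intervals at this depth cover counting error only. P-values measure the spread between pooled hydroponic experiments. Descriptions of genes come from the study's shortened tables, so a gene without one is not thereby unknown.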

Additional observations from a re-analysis of the deposited data

Results flagged for a closer look

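Sb09g019650 moved in opposite directions with PEG in roots and shoots. Every PEG library was above the H2O libraries in roots (log2 ratio 1.71) and below them in shoots (−1.67). In ABA-treated shoots its log2 ratio was −2.02, with overlapping replicates. Sb09g017860 also lay below the H2O libraries in all PEG-treated shoots (−0.17 in shoots, 1.14 in roots), at 0, 0 and 0.04 RPKM against 0.128, 0.24 and 0.0445, where few reads carry the difference. Sb03g026220 was below the NaOH libraries in all ABA-treated roots (−1.25) and above them in all ABA-treated shoots (0.60). These differences between roots and shoots were not tested, since the root values chose the genes. No group here was large enough for a check of single outlying libraries, which was set for groups of 4 or more.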

How the results depend on the processing

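The number of members was 106 with a pseudocount of 0.1 RPKM (44 shared with the 51), 29 with the 6 control root libraries pooled (28 shared) and 31 with the controls exchanged (26 shared), the last added after seeing the data; it was 44 with TMM-rescaled RPKM, 51 with a filter at 1 RPKM, 51 to 72 without a replicate number (36 shared without replicate 3), and 43 to 68 without a single library. Members called in PEG-treated shoots, 1 in the fit of all libraries, were 0 in the fit of the 6 libraries, 2 without a depth cutoff (Sb06g019830 was added), 0 to 1 without a replicate number, 0 without PEG shoot replicate 2, 2 without H2O shoot replicate 2 (Sb04g031630 was added) and 0 to 2 over all single libraries. In ABA-treated shoots the count of 3 was 1 with the RTA version as a term, 7 without a depth cutoff and 0 to 3 without a replicate number. In PEG-treated roots the count of 35 was 15 with base counts as deposited and 10 to 26 without a replicate number; in ABA-treated roots the count of 45 was 35 to 51 without a replicate number and 39 without NaOH root replicate 3. The replicate block gave 46 members called in ABA-treated roots, 41 in PEG-treated roots, 1 in PEG-treated shoots and 3 in ABA-treated shoots, and changed no other call count. Between the control solutions 0 members were called under every alternative in roots and in shoots. The causes of these changes were not tested beyond the fewer libraries or genes that each alternative leaves.

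For the 22 named members, 46 of 396 recomputed root ratios moved by more than the spread between replicates and 0 changed sign. Of 365 shoot fold changes, 4 lost a call, all for Sb09g019650, and 27 uncalled values near 0 changed sign. TMM rescaling moved the median of all genes by −0.21 on the log2 scale in PEG-treated shoots, −0.13 in ABA-treated shoots and −0.05 or less in size in roots. Motifs in promoters, planned before, were not run because no promoter sequence was used here. Low depth in shoots limits calls for 33 of the 51 members.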
